A study of Mus musculus with 24 samples.

Results

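The mitochondrial carrier family was taken here as the protein-coding genes of the GENCODE vM21 mouse annotation whose symbol is Slc25a followed by a digit, leaving out Slc25a1 and Slc25a20. The rule found 45 of 21755 protein-coding genes on chromosomes 1 to 19 and X. It used names only and no measured value. The genes were described by the acetylation of histone H3 at lysine 9 (H3K9ac), a mark of active promoters, in peaks lying within 1000 bp of any of their annotated transcription start sites (TSSs). A promoter peak was present in all 12 H3K9ac libraries for 37 of the 45 genes, or 82.2%, while 49.5% of all protein-coding genes had one in all 12.

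Members of this family are nuclear-encoded proteins, most of which sit in the inner mitochondrial membrane and move nucleotides, phosphate, amino acids, carboxylates, cofactors and metal ions between the cytosol and the matrix. They supply oxidative phosphorylation with ADP and phosphate, and the malate-aspartate shuttle with its transporters. H3K9ac is written on histones by acetyltransferases that include KAT2A (GCN5) and that use acetyl-CoA, and CPT1A opens the entry of long-chain fatty acids such as palmitate into mitochondrial oxidation, which yields acetyl-CoA.

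The libraries came from ChIPmentation, an immunoprecipitation in which a transposase adds the adapters, of 3D spheroids grown for 5 days from 4T1, a line derived from a mammary carcinoma of the mouse. The 4 groups had 3 libraries each: scramble control (SCR), CPT1a knockout (CPT1a KO) and KAT2a knockout (KAT2a KO), all in medium with 75 µM palmitate, and CPT1a knockout with 5 mM acetate (CPT1a KO + Ac), for which the labels name only acetate, while elsewhere the study describes its CPT1a-deficient spheroids, with or without acetate, as kept in palmitate. All lines, the control included, carried Cas9 under a doxycycline-inducible promoter, with a non-targeting guide in the control, and the lines were selected with puromycin. The comparisons ask how loss of either protein, and acetate given to CPT1a KO cells, go with promoter acetylation, and the 3 comparisons with scramble share its 3 libraries.

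The lists held 16212 to 34370 peaks per library, and 37 or 38 members had a promoter peak in each. The mean coverage that the peak caller had used as its lowest background ranged from 0.554 fragments in CPT1a KO replicate 3 to 2.52 in scramble replicate 1, and the median number of fragments at the members' summits from 34 to 98. Since the lists carry no common scale between libraries, each gene's strongest promoter peak was ranked by its fold enrichment over local background among the 10777 genes called in all 12 libraries, and the rank was written as a percentile, low for weak promoters and high for strong ones. A change in rank is therefore relative to other genes, and nothing here gives the total amount of H3K9ac. The lists do not measure whether the guides cut Cpt1a or Kat2a. Of 12 mammary epithelial marker genes 8 had a promoter peak in all 12 libraries, Krt5 and Trp63 had none, Esrp1 had one in 10 libraries and Krt14 in 3, all of them KAT2a KO. Pdgfra was the only one of 6 fibroblast markers to have one in all 12, Col1a1 had one in 11, and no marker of leukocytes, endothelium or adipocytes had one in all 12. Nothing in the labels says that the 3 libraries of a group came from separate cultures, so the p-values may measure technical spread only.

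The promoters of 4 members on which the results turn are shown, as the 250 bases upstream of the RefSeq start (GRCm38.p6), written 5′ to 3′ on the gene's strand. They are Slc25a42, whose rank differed in both knockouts, Slc25a17, which was lower in KAT2a KO, and Slc25a13 and Slc25a36, whose peaks were narrower in CPT1a KO. Capitals mark matches, on either strand, to the letters listed after the sequences.
Slc25a42, chr8:70212282-70212531, minus strand: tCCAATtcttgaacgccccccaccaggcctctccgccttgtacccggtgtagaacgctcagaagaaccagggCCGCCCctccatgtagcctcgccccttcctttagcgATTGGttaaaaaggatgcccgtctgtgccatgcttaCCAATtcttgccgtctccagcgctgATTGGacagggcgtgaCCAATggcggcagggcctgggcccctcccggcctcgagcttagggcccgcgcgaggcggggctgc
Slc25a17, chr15:81360766-81361015, minus strand: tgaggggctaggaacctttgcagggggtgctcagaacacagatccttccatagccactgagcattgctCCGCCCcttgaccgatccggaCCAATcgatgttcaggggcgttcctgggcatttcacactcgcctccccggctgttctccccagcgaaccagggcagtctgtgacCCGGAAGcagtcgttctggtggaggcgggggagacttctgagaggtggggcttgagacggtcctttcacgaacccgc
Slc25a13, chr6:6217174-6217423, minus strand: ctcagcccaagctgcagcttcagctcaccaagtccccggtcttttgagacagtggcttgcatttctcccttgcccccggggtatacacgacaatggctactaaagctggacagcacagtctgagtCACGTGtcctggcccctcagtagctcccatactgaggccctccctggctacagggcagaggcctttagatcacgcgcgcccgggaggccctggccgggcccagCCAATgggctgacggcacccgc
Slc25a36, chr9:97111042-97111291, minus strand: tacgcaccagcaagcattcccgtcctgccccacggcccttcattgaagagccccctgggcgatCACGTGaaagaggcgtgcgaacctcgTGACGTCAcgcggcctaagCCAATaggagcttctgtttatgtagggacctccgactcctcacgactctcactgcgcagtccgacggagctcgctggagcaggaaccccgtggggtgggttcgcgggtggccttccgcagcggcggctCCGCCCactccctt

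The letters searched were the NF-Y box CCAAT, the SP box GGGCGG, the ETS site CCGGAAG, the E-box CACGTG, the CRE TGACGTCA, the ERR site TCAAGGTCA, the NRF1 and YY1 sites and the TATA box TATAAA, on both strands and with overlaps between motifs allowed. The Slc25a42 bases hold CCAAT 5 times, while each of the other 3 sequences holds it once. RefSeq promoter windows (250 bases before to 50 after the start) were matched for 28 of the 37 members with a peak in all 12 libraries and for 8530 of the genes called in all 12. GGGCGG was in 89.3% of the member windows and 68.9% of the gene windows. CCAAT was in 50% against 39.6%, CCGGAAG in 17.9% against 21.1%, CACGTG in 14.3% against 10.5%, and TGACGTCA in 3.57% against 3.58%. The NRF1 letters were in 1 member window, 3.57%, against 11.9% of gene windows. No member window held TATAAA, the YY1 site or TCAAGGTCA, which were in 6.01%, 2.94% and 0.223% of gene windows. Median GC content was 62% in the members and 61.7% in the genes, and the median ratio of observed to expected CpG was 0.712 and 0.800. These shares are descriptions of letters in a window, and the shares were not tested.

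Promoter calls divided the family by gene rather than by group. Besides the 37 members called in all 12 libraries, 7 were called in none: Slc25a31, the adenine nucleotide translocase of germ cells, Slc25a41 and Slc25a54 among the adenine nucleotide carriers, Slc25a2 and Slc25a18 among the amino acid carriers, Slc25a21, the oxodicarboxylate carrier, and Slc25a34. For 5 of the 7 the nearest peak lay far from the gene's main TSS, from 22259 bp for Slc25a34 to 48238 bp for Slc25a18, over all libraries. The nearest peaks of Slc25a41 were 8172 to 8890 bp away and those of Slc25a2 were 3772 to 4729 bp away.

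Slc25a23, a calcium-regulated ATP-Mg/phosphate carrier, was the only member with a promoter peak in some but not all libraries. It was called in 9 of 12 and missed in scramble replicate 3, CPT1a KO replicate 3 and CPT1a KO + Ac replicate 2. Where called, its fold enrichment was 4.58 and 4.52 in scramble, 5.54 and 7.41 in CPT1a KO, 5.07 and 4.46 in CPT1a KO + Ac, and 4.87, 5.03 and 6.33 in KAT2a KO. Its peak was 230 to 1085 bp wide, and in 2 libraries it was also the strongest promoter peak of Crb3. The 3 missing calls were spread over 3 groups, and the enrichment was low wherever the peak was called.

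A peak can serve more than 1 gene. In all 12 libraries the strongest promoter peak was shared with another protein-coding gene for 7 members, by Slc25a11 with Rnf167, Slc25a27 with Cyp39a1, Slc25a32 with Dcaf13, Slc25a40 with Dbf4 and Slc25a46 with B930094E09Rik, and by Slc25a29 and Slc25a47 with each other. The value given for Slc25a47 is that of the Slc25a29 promoter, since the peak lies at an alternative TSS, and Slc25a47 lost its call when only TSSs of protein-coding transcripts were used. The Slc25a53 peak also lies at an alternative TSS. Acetylation of the paired genes cannot be told apart here.

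Across the family the promoters covered nearly the whole range of ranks. By mean rank in scramble, 14 of the 37 members lay in the lowest 25% of ranks and 7 in the highest 25%, and the median member rank per library was between 32.8 and 46.2. The median width of the member peaks was below the median of all genes in each of the 12 libraries, for example 2368 against 2886 bp in scramble replicate 1 and 1305 against 1444 bp in CPT1a KO replicate 3. The plot of ranks by role shows these levels library by library.

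**Figure D1:**
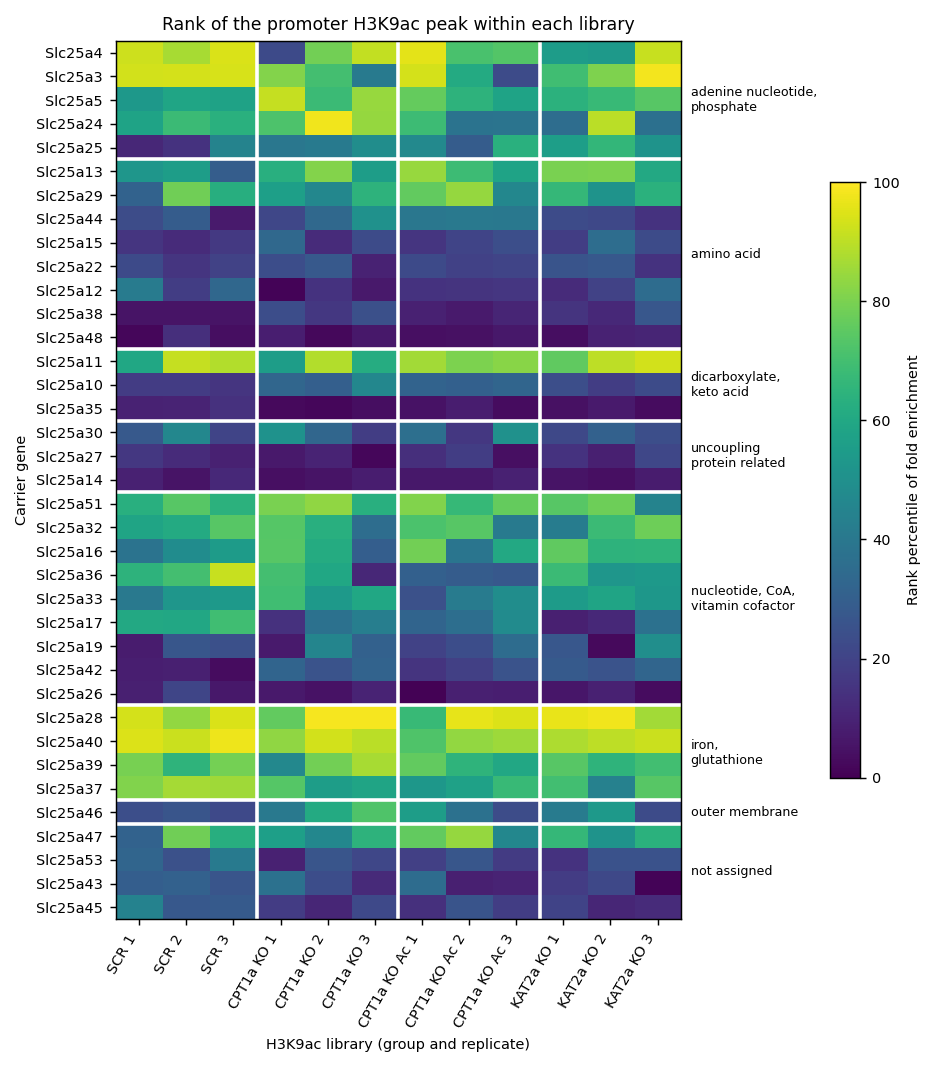
Rank percentile of the fold enrichment of the strongest promoter peak for the 37 members called in all 12 libraries (lines, grouped by role) in each library (columns, 3 per group); the colour scale runs from the weakest to the strongest promoter. The iron and glutathione carriers had the highest SCR ranks of any role by their median, 87.5, and Slc25a35, Slc25a48 and Slc25a14 stayed between 1.57 and 14.2.

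The iron and glutathione carriers were the strongest role by the median of mean scramble ranks, 87.5, with all 4 members called and mean scramble ranks from 74.5 for Slc25a39 to 94.7 for Slc25a40, both of which serve mitochondrial glutathione import. Slc25a40 had ranks of 94.6, 92.0 and 97.3 in scramble, 83.5, 93.2 and 89.6 in CPT1a KO, 72.4, 83.8 and 85.5 in CPT1a KO + Ac, and 87.7, 89.9 and 92.1 in KAT2a KO. Slc25a28, the iron importer mitoferrin 2, had the highest mean over all 12 libraries, 90.4, and its ranks ran from 67.5 to 98.7. The order of Slc25a28 and Slc25a40 at the top is not resolved, since their libraries overlap.

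The adenine nucleotide and phosphate carriers spanned from weak to strong, with 5 of 9 members called in all 12 libraries and mean scramble ranks of 23.5 to 93.6. Slc25a3, which imports the phosphate for ATP synthesis, had ranks of 93.2, 93.6 and 94.0 in scramble, 81.4, 70.3 and 40.6 in CPT1a KO, 93.6, 61.3 and 22.8 in CPT1a KO + Ac, and 69.3, 80.8 and 98.3 in KAT2a KO. Slc25a4, the translocase ANT1, had 92.4, 86.9 and 94.5 in scramble, 22.5, 78.8 and 90.8 in CPT1a KO, 95.9, 71.4 and 73.3 in CPT1a KO + Ac, and 55.4, 53.6 and 91.5 in KAT2a KO. Both were uniform in scramble and wide apart within the other groups, and neither passed the test in any comparison of these ranks. Relative to the library's calling depth, their local background was 3.61 for Slc25a3 in CPT1a KO replicate 3 and 3.11 in CPT1a KO + Ac replicate 3, and 2.94 for Slc25a4 in CPT1a KO replicate 1. It was 1.00 to 1.09 for both genes in scramble. The lowest Slc25a4 rank in CPT1a KO + Ac, 71.4 in replicate 2, had a background of 1.00, and replicate 3, at 73.3, had 1.56. What part the background had in these ranks was not tested. Slc25a5, the translocase ANT2, had the lower mean in scramble, at 53.5, 58.9 and 57.8, and stood at 91.4, 68.3 and 84.6 in CPT1a KO, 76.4, 64.6 and 57.9 in CPT1a KO + Ac and 64.3, 67.3 and 73.9 in KAT2a KO. The CPT1a KO libraries of Slc25a5 lay above those of scramble, a difference of 24.7 percentiles ± 9.39 (SE) with an adjusted p of 0.108 (limma).

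The amino acid carriers were weaker, with 8 of 10 called and a median of mean scramble ranks of 19.5, from 5.19 for Slc25a38 to 57.5 for Slc25a29. Slc25a48, a choline transporter, was among the weakest, at 1.63, 13.3 and 3.64 in scramble, 8.52, 2.08 and 6.48 in CPT1a KO, 3.94, 4.54 and 6.49 in CPT1a KO + Ac, and 3.65, 9.62 and 10.3 in KAT2a KO. Its groups overlapped throughout. Of the dicarboxylate and keto acid carriers 3 of 5 were called, and Slc25a11, the oxoglutarate/malate carrier of the malate-aspartate shuttle, stood above the other 2 with 59.5, 91.4 and 88.5 in scramble, 55.6, 88.7 and 62.0 in CPT1a KO, 86.0, 80.4 and 82.3 in CPT1a KO + Ac, and 75.6, 89.9 and 93.3 in KAT2a KO. The uncoupling protein related genes Slc25a14, Slc25a27 and Slc25a30 had mean scramble ranks of 8.62, 12.6 and 31.5, and the genes without an assigned substrate, Slc25a43, Slc25a45, Slc25a47 and Slc25a53, 29 to 57.5. All 9 carriers of nucleotides, CoA and vitamin cofactors were called, from 6.95 for Slc25a42 to 75.5 for Slc25a36.

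Within a group, the median SD of a member's rank over its 3 libraries was 6.0 percentiles in scramble, 10.8 in CPT1a KO, 7.51 in CPT1a KO + Ac and 7.62 in KAT2a KO, beside 8.24, 10.6, 8.2 and 8.53 for all genes. The test that follows, limma across all 10777 genes with Benjamini-Hochberg adjustment, was read at an adjusted p below 0.05.

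In CPT1a KO against scramble the promoters of 3 members rose in rank and 2 fell. The 3 that rose were Slc25a42, which exchanges CoA across the inner membrane, Slc25a38, the glycine carrier that feeds heme synthesis, and Slc25a10, the malate and succinate carrier, and all 3 were weak promoters in scramble. The 2 that fell were Slc25a12, the aspartate-glutamate carrier aralar, and Slc25a35. As shares of the 37 members these were 8.11% higher and 5.41% lower, beside 4.77% and 5.24% of all 10777 genes, and 13.5% in either direction beside 10.0%. Without overlap of the libraries 6 members lay higher and 6 lower, 16.2% each, beside 15.5% and 15.3% of all genes. The other 32 members did not pass the test, and the median difference over the 37 was -1.72 percentiles, beside 0.22 over all genes.

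Slc25a42 had ranks of 8.52, 8.82 and 3.5 in scramble, 32.4, 25.6 and 31.9 in CPT1a KO, 14.9, 19.1 and 25.5 in CPT1a KO + Ac, and 28.3, 25.7 and 32.8 in KAT2a KO. Every library of the other 3 groups lay above the 3 scramble libraries. The fold enrichment was 6.27 to 9.31 in scramble and 15.1 to 24.1 in CPT1a KO, values that have no common scale between libraries. The mean rank was 6.95 ± 2.99 (SD, n = 3) in scramble and 30.0 ± 3.78 in CPT1a KO, a difference of 23 percentiles ± 4.66 (SE; limma, adjusted p = 0.00804). Against scramble, the KAT2a KO mean of 28.9 ± 3.59 (SD, n = 3) was higher by 22 ± 4.66 (SE; limma, adjusted p = 0.0193). The CPT1a KO call held without any single one of its 6 libraries, but it was lost after removal of the trend of rank with promoter GC content (15.6 percentiles, adjusted p = 0.0865) and when ranked among all peaks of a library (5.88, adjusted p = 0.452). Ranks among all peaks also depend on the length of the lists, 29176 to 34370 peaks in scramble and 16212 to 23552 in CPT1a KO. The KAT2a KO call was lost without scramble replicate 1 or 3 or KAT2a KO replicate 1 or 3, with adjusted p-values from 0.0531 to 0.0827, and after GC removal (15.6, adjusted p = 0.126) and among all peaks (10.9, adjusted p = 0.333).

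Slc25a38 was nearly constant in scramble, at 5.15, 5.31 and 5.11, and stood at 23.8, 16.0 and 24.5 in CPT1a KO. It was 9.18, 7.13 and 10.5 in CPT1a KO + Ac and 15, 11.4 and 27 in KAT2a KO. The CPT1a KO and scramble libraries did not overlap, and the acetate libraries lay between them. The difference from scramble was 16.3 percentiles ± 3.94 (SE; adjusted p = 0.020) in CPT1a KO and 12.6 (adjusted p = 0.0848) in KAT2a KO. The CPT1a KO call was lost without scramble replicate 1 or 3 or CPT1a KO replicate 1 or 3 (adjusted p from 0.0527 to 0.0615), after GC removal (14.3, adjusted p = 0.0840) and among all peaks (2.15, adjusted p = 0.805).

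Slc25a10 had ranks of 17.9, 17.8 and 15.4 in scramble, 33, 30.3 and 46.1 in CPT1a KO, 32, 30.6 and 32.8 in CPT1a KO + Ac, and 23.9, 18.3 and 23 in KAT2a KO. Scramble was the lowest group, without overlap with any other. The CPT1a KO difference was 19.5 percentiles ± 5.68 (SE; adjusted p = 0.0417). This call was lost on leaving out any library except CPT1a KO replicate 2 (adjusted p from 0.0507 to 0.129), the difference was 3.70 after GC removal (adjusted p = 0.766), and it turned to -0.52 among all peaks (adjusted p = 0.943).

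Slc25a12 had ranks of 41.5, 18.4 and 33.5 in scramble, 1.07, 14.6 and 6.83 in CPT1a KO, 14.5, 14.9 and 16.0 in CPT1a KO + Ac, and 12.4, 19.6 and 35.5 in KAT2a KO. CPT1a KO lay below scramble in every library, while KAT2a KO overlapped both. The CPT1a KO difference was -23.6 percentiles ± 6.45 (SE; adjusted p = 0.0319). The local background over calling depth of this peak was 1.00 in each scramble library and 3.52, 1.16 and 2.53 in the CPT1a KO libraries, and by summit pileup, which leaves the background out, the difference was -7.45 (adjusted p = 0.0736). Leaving out scramble replicate 1 or 3 or CPT1a KO replicate 1 or 3 ended the call (adjusted p from 0.0823 to 0.121), as did GC removal (-15.1, adjusted p = 0.162). Its partner Slc25a13, the aspartate-glutamate carrier citrin, had 52.4, 55.8 and 29.5 in scramble, 63.0, 81.3 and 55.5 in CPT1a KO, 84.8, 68.4 and 58.2 in CPT1a KO + Ac and 79.9, 80.2 and 60.3 in KAT2a KO, and passed the test in no comparison of these ranks.

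Slc25a35, a little-studied relative of the carboxylate carriers, was weak everywhere, at 9.43, 9.78 and 14.2 in scramble, 2.42, 1.57 and 3.53 in CPT1a KO, 4.97, 7.99 and 3.42 in CPT1a KO + Ac, and 4.68, 7.34 and 3.40 in KAT2a KO. Scramble was the highest group, and no library of another group reached it. The CPT1a KO difference was -8.63 percentiles ± 2.26 (SE; adjusted p = 0.0270). This was the only one of the 5 calls that held after GC removal (-15.3, adjusted p = 0.00803), while it was lost at equal calling depth (-5.12, adjusted p = 0.101) and without scramble replicate 3 or CPT1a KO replicate 1 or 2 (adjusted p from 0.0581 to 0.101). The downstream end of its peak lay at -489, -554 and -438 bp from the main TSS in scramble, short of that TSS. In CPT1a KO it lay at -24, 682 and -321 bp, so the extent compared differed between libraries. Slc25a16, which is linked to CoA transport like Slc25a42, overlapped between groups, with 38, 48.5 and 54.7 in scramble, 73.9, 61.6 and 29.9 in CPT1a KO, 78.9, 38.9 and 60.5 in CPT1a KO + Ac and 75.4, 64.6 and 65 in KAT2a KO. Only its KAT2a KO libraries all lay above scramble.

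**Figure D2:**
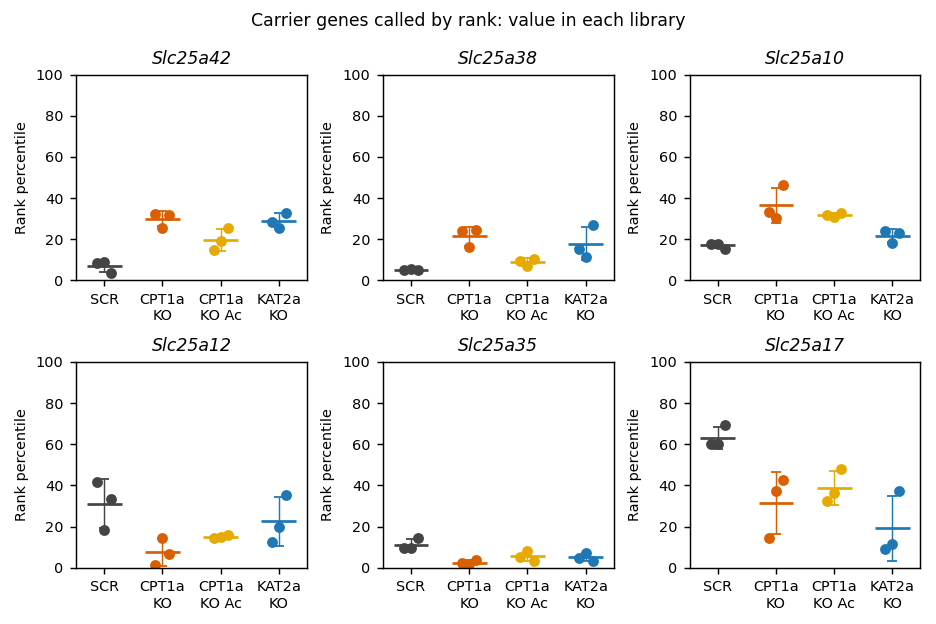
Rank percentile of the 6 members that passed the test in CPT1a KO or KAT2a KO against scramble; points are libraries, lines are group means and bars are the SD (n = 3). Slc25a42, Slc25a38 and Slc25a10 have their lowest points in SCR, and Slc25a35 and Slc25a17 their highest.

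In KAT2a KO against scramble 1 member rose and 1 fell, beside 1.70% of all genes higher and 2.71% lower, or 4.41% in either direction. The libraries of 13 members, or 35.1%, did not overlap between the groups, 8 higher and 5 lower, beside 29.3% of all genes. The member that rose was Slc25a42, above. The member that fell was Slc25a17, a peroxisomal carrier of CoA, FAD and NAD, which had ranks of 60.3, 59.9 and 69.4 in scramble, 8.88, 11.4 and 37.3 in KAT2a KO, 14.4, 37.2 and 42.8 in CPT1a KO and 32.2, 36.3 and 48.1 in CPT1a KO + Ac. All 9 libraries outside scramble lay below the 3 scramble libraries. The KAT2a KO difference was -44.0 percentiles ± 10.1 (SE; adjusted p = 0.0262), and the CPT1a KO difference was -31.8 (adjusted p = 0.0588). Its local background over calling depth was 2.04, 2.20 and 1.00 in the KAT2a KO libraries, the first 2 of which had the lowest ranks, and 1.00 to 1.04 in scramble. The call was lost without scramble replicate 1 or 3 or KAT2a KO replicate 1 or 2 (adjusted p from 0.0612 to 0.103), after GC removal (-34.0, adjusted p = 0.0792) and among all peaks (-25.0, adjusted p = 0.106).

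Adding acetate to CPT1a KO cells moved no member past the threshold (limma), beside 0.0464% of all genes, which is 5 genes. At an unadjusted p below 0.05 there were 4 members, all lower with acetate, which is 10.8% beside 5.34% of all genes lower, and none was higher beside 3.76%. They were Slc25a38, with a difference of -12.5 percentiles ± 3.94 (SE; adjusted p = 0.377), Slc25a24, a calcium-regulated ATP-Mg/phosphate carrier, with -36.3 ± 14.1 (adjusted p = 0.453), Slc25a33, a pyrimidine nucleotide carrier, with -22.4 ± 9.98 (adjusted p = 0.520), and Slc25a42, with -10.2 ± 4.66 (adjusted p = 0.538). Slc25a24 had ranks of 72.2, 97.8 and 84.3 in CPT1a KO and 68.7, 38.1 and 38.6 in CPT1a KO + Ac. Slc25a33 had 69.2, 53.9 and 59.6 in CPT1a KO and 24.8, 41.6 and 49.0 in CPT1a KO + Ac. The libraries of these 4 did not overlap between the 2 groups, 10.8% of members beside 8.69% of all genes lower without overlap, and by summit pileup Slc25a38 passed the test (below).

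Acetate-treated CPT1a KO cells against scramble likewise gave 0 members past the threshold (limma), beside 5.56% of all genes, with 4 members higher and 8 lower at an unadjusted p below 0.05, or 10.8% and 21.6%, beside 9.57% and 12.4%. Non-overlapping members numbered 12, or 32.4%, of which 5 were higher and 7 lower, beside 31.9% of all genes. The smallest p-value was that of Slc25a36, a pyrimidine nucleotide carrier, which had ranks of 64.7, 70.2 and 91.7 in scramble, 70.3, 59.7 and 11.1 in CPT1a KO, 30.8, 29.1 and 27.6 in CPT1a KO + Ac and 68.3, 52.7 and 53.6 in KAT2a KO. The acetate libraries were close together and below every scramble library, by 46.3 percentiles in the mean (difference -46.3 ± 13.7, SE; adjusted p = 0.0611). The single low CPT1a KO library, replicate 3, had a local background over calling depth of 3.61, while the other 8 libraries outside scramble were at 1.00. Slc25a42 and Slc25a10 followed, 12.9 (adjusted p = 0.119) and 14.8 (adjusted p = 0.141) higher than scramble.

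Since the fold enrichment divides by the local background, the members were also ranked by the pileup at the summit of the same peak, a measure added after the results above had been seen. By this rank 14 of 37 members, 37.8%, passed the test in CPT1a KO against scramble, beside 45.0% of all genes, 12, or 32.4%, in KAT2a KO beside 37.4%, and 11, or 29.7%, in CPT1a KO + Ac against scramble beside 37.3%. Slc25a29 and Slc25a47, which share 1 peak, are both among these 11. Slc25a3, uncalled by fold enrichment, had pileup ranks of 84.9, 82.4 and 88.9 in scramble and 97.9, 97.1 and 96.8 in KAT2a KO, a difference of 11.9 ± 4.20 (SE; adjusted p = 0.0394). Leaving out single libraries and removal of the GC trend were not run for this rank.

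The largest rises by pileup in CPT1a KO were those of Slc25a13 and Slc25a46. Slc25a13 had pileup ranks of 31.4, 36.1 and 29.5 in scramble, 79.4, 64.0 and 64.1 in CPT1a KO, 70.8, 59.5 and 77.3 in CPT1a KO + Ac, and 67.0, 63.9 and 80.1 in KAT2a KO. The 3 other groups were alike and lay far above scramble, by 36.8 ± 6.71 (SE; adjusted p = 0.000694), 36.9 (adjusted p = 0.0010) and 38 (adjusted p = 0.000876) percentiles. Slc25a46, an outer membrane protein of mitochondrial division whose peak is shared with B930094E09Rik, had 12.1, 15 and 12.8 in scramble, 49.5, 42 and 51.4 in CPT1a KO, 39.5, 36 and 32.5 in CPT1a KO + Ac, and 27.9, 35.2 and 30.2 in KAT2a KO. Here too scramble was lowest without overlap, and the differences were 34.4 ± 4.03 (SE; adjusted p = 3.14e-05), 22.7 (adjusted p = 0.000877) and 17.8 (adjusted p = 0.00427). Slc25a42 was again higher in all 3, by 23.2 (adjusted p = 0.000654), 17.2 (adjusted p = 0.00607) and 22.3 (adjusted p = 0.00137).

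The largest fall by pileup in CPT1a KO was that of Slc25a37, the iron importer mitoferrin 1, with pileup ranks of 78.1, 71.1 and 73.4 in scramble, 41.5, 37 and 37.7 in CPT1a KO, 36.9, 47.9 and 48.2 in CPT1a KO + Ac, and 52.8, 65.1 and 50.9 in KAT2a KO. Scramble stood above every other library, and the CPT1a KO difference was -35.5 ± 5.85 (SE; adjusted p = 0.000362). Slc25a36 was at 73.9, 50.6 and 82.0 in scramble, 38.5, 40.9 and 34 in CPT1a KO, 19.8, 22.8 and 15.7 in CPT1a KO + Ac, and 51.5, 34.2 and 30.2 in KAT2a KO. Its acetate libraries were the lowest, 49.4 percentiles under scramble in the mean (difference -49.4, adjusted p = 0.000332). Slc25a17, Slc25a35 and Slc25a45 also fell in all 3 comparisons with scramble, while Slc25a12 and Slc25a10 did not pass the test by pileup.

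With acetate added to CPT1a KO cells, Slc25a38 was the only member called by pileup, or 2.7% beside 1.16% of all genes. Its pileup ranks were 27.9, 16.7 and 25.5 in CPT1a KO and 8.40, 8.56 and 8.58 in CPT1a KO + Ac, next to 5.67, 4.97 and 11.9 in scramble and 16.6, 14.3 and 21.6 in KAT2a KO. The acetate libraries lay below all CPT1a KO libraries and within the range of scramble. The difference was -14.8 percentiles ± 3.03 (SE; adjusted p = 0.0440), and by fold enrichment it had an adjusted p of 0.377.

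Peak widths were compared on the log2 scale, against a general narrowing: the median difference over all genes was -0.38 in CPT1a KO, -0.16 in KAT2a KO and -0.26 in CPT1a KO + Ac against scramble, and over the 37 members it was -0.25, -0.06 and -0.08. In CPT1a KO 4 members narrowed, or 10.8%, beside 25.1% of all genes, and 1 widened, or 2.7%, beside 1.39%. Those that narrowed were Slc25a13, Slc25a36, Slc25a17 and Slc25a22, a glutamate carrier, and the one that widened was Slc25a14, an uncoupling protein relative. KAT2a KO gave 1 narrower member beside 2.91% of all genes and 0 wider (limma) beside 0.974%, and 2 wider at an unadjusted p below 0.05, or 5.41%, beside 4.78%, and 3 narrower, or 8.11%, beside 19.7%.

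The Slc25a13 peak was 2543, 2952 and 2259 bp wide in scramble, 1573, 1532 and 1417 bp in CPT1a KO, 1652, 1274 and 1790 bp in CPT1a KO + Ac, and 1645, 1562 and 1361 bp in KAT2a KO. Every scramble library exceeded all others. The width ratio was 0.586 in CPT1a KO (log2 -0.77 ± 0.18, SE; adjusted p = 0.0116), 0.606 in CPT1a KO + Ac (adjusted p = 0.0389) and 0.591 in KAT2a KO (adjusted p = 0.0429). The CPT1a KO call held without any single library, whereas those in CPT1a KO + Ac (adjusted p from 0.0587 to 0.130) and KAT2a KO (0.0632 to 0.149) were lost without any 1 of the libraries compared, and all 3 were lost after GC removal (log2 -0.26, -0.32 and -0.46, adjusted p = 0.371, 0.300 and 0.126). Acetate-treated cells against scramble had 2 called members in all, Slc25a13 beside 6.25% of genes narrower and Slc25a12 beside 0.779% wider.

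Slc25a36 was 3119, 2709 and 2731 bp in scramble, 1886, 1808 and 1254 bp in CPT1a KO, 1850, 1844 and 2171 bp in CPT1a KO + Ac, and 1796, 1829 and 1629 bp in KAT2a KO. Scramble was again the widest without overlap, with a ratio of 0.570 in CPT1a KO (log2 -0.81 ± 0.18, SE; adjusted p = 0.00969). This call held without any single library and was lost after GC removal (log2 -0.27, adjusted p = 0.179). Slc25a17 was 1923, 1773 and 1612 bp in scramble, 1158, 1336 and 1001 bp in CPT1a KO, 1226, 1003 and 1256 bp in CPT1a KO + Ac, and 1387, 1419 and 1237 bp in KAT2a KO. Its CPT1a KO ratio was 0.656 (adjusted p = 0.0289), lost without scramble replicate 1 or 2 or CPT1a KO replicate 1 or 3 (adjusted p from 0.0511 to 0.0900) and after GC removal (log2 -0.14, adjusted p = 0.533).

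Slc25a22 was 2044, 1941 and 1620 bp in scramble, 1055, 1134 and 911 bp in CPT1a KO, 1682, 1010 and 1362 bp in CPT1a KO + Ac, and 1837, 1562 and 1042 bp in KAT2a KO. CPT1a KO did not overlap scramble, and KAT2a KO overlapped both. The CPT1a KO ratio was 0.554 (log2 -0.85 ± 0.25, SE; adjusted p = 0.0277), a call that held after GC removal and was lost without scramble replicate 1 or 2 or CPT1a KO replicate 1 or 3 (adjusted p from 0.0557 to 0.0884). Its promoter held 1 to 5 separate peaks per library, and with their widths summed the call was lost (log2 -0.64, adjusted p = 0.122).

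Slc25a14 and Slc25a12 went the other way, and in both the number of separate peaks at the promoter differed between the groups. The strongest Slc25a14 peak was 679, 722 and 665 bp wide in scramble, 1384, 1461 and 1143 bp in CPT1a KO, 632, 732 and 856 bp in CPT1a KO + Ac, and 1389, 1424 and 878 bp in KAT2a KO. CPT1a KO was wider by 1.92-fold (log2 0.94 ± 0.24, SE; adjusted p = 0.0149), held without any single library, and overlapped neither scramble nor CPT1a KO + Ac. There were 3, 2 and 2 peaks within 1000 bp of a TSS in the scramble libraries and 1 in each CPT1a KO library, whose single peak crossed the main TSS. With peaks within 500 bp merged the difference turned to log2 -0.44 (adjusted p = 0.112), and with widths summed to -0.12 (adjusted p = 0.644).

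The strongest Slc25a12 peak was 943, 1010 and 1115 bp in scramble, 1710, 1723 and 1096 bp in CPT1a KO, 1720, 1738 and 1871 bp in CPT1a KO + Ac, and 1883, 1941 and 1376 bp in KAT2a KO. All acetate and KAT2a KO libraries exceeded scramble, and 1 CPT1a KO library did not. The ratio of CPT1a KO + Ac to scramble was 1.74 (log2 0.80 ± 0.21, SE; adjusted p = 0.0471). This promoter held 3, 2 and 2 peaks in scramble and 1 in each of the other 9 libraries, the difference turned to log2 -0.58 when nearby peaks were merged (adjusted p = 0.0381) and -0.43 when widths were summed (adjusted p = 0.105), and leaving out any 1 of the 6 libraries lost the call (adjusted p from 0.0583 to 0.129).

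Adding acetate to CPT1a KO cells changed the width of 0 members (limma) and of 0.00% of all genes. At an unadjusted p below 0.05 there was 1 member, or 2.7%, beside 2.26% of genes: Slc25a14, with the widths above, narrower with acetate by 0.85 on the log2 scale (difference -0.85, adjusted p = 0.987). The next smallest p-values were those of Slc25a11, at 3585, 3906 and 1438 bp in CPT1a KO and 1694, 1548 and 1508 bp in CPT1a KO + Ac, and Slc25a44, a branched-chain amino acid carrier, at 1491, 1377 and 866 bp and 2148, 1362 and 1878 bp. Both overlapped between the groups.

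**Figure D3:**
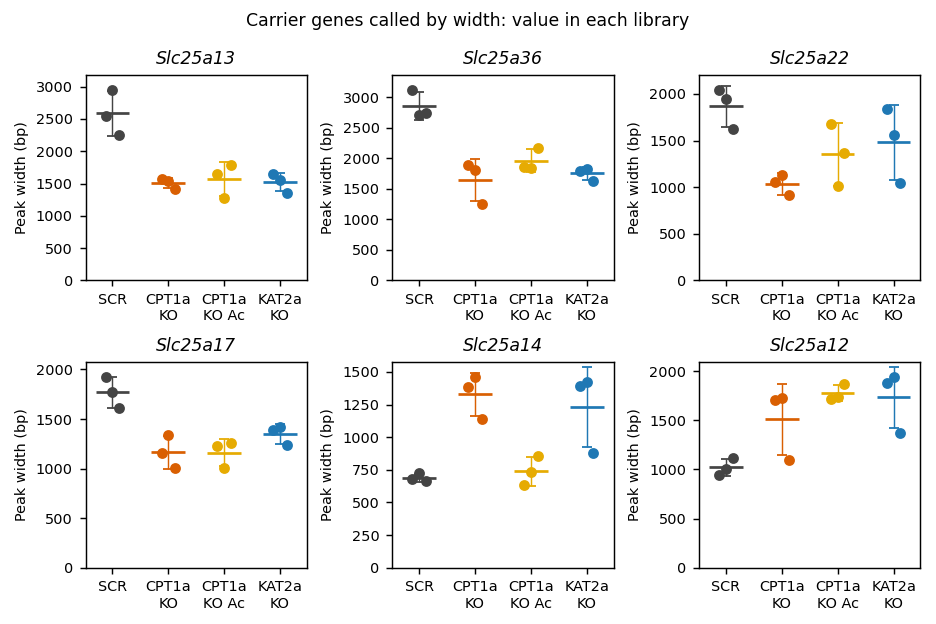
Width in bp of the strongest promoter peak of the 6 members that passed the test on width in any comparison; points are libraries, lines are group means and bars are the SD (n = 3). Slc25a13, Slc25a36, Slc25a22 and Slc25a17 have their widest group mean in SCR, and Slc25a14 and Slc25a12 their narrowest.

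The summits, the positions of highest coverage, lay closer to the TSS outside scramble, a measure added after the widths had been seen and given with counts and no test. It could be taken for 35 members and 10055 genes whose summit lay within 5000 bp of the main TSS in all libraries. The distance has no sign, so a change to a peak on the other side of the TSS can count as a move nearer. The median Slc25a27 summit lay at -590 bp in scramble and 375 bp in CPT1a KO, and that of Slc25a39 at -505 and 351 bp. The members' median distance was 610, 603 and 698 bp in scramble, 353, 365 and 356 bp in CPT1a KO, 431, 422 and 403 bp in CPT1a KO + Ac, and 407, 403 and 365 bp in KAT2a KO. Scramble was farthest without overlap and CPT1a KO nearest, with 1 KAT2a KO library at 365 bp like 1 CPT1a KO library. All genes followed the same pattern, with 653, 625 and 673 bp in scramble and 356, 368 and 360 bp in CPT1a KO.

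In CPT1a KO the 3 libraries of 28 of 35 members, or 80.0%, lay nearer than all 3 scramble libraries, beside 68.6% of all genes, and no member lay farther beside 2.34%. The counts were 23, or 65.7%, beside 56.4% in KAT2a KO and 22, or 62.9%, beside 50.2% in CPT1a KO + Ac. With acetate against CPT1a KO, 4 members, 11.4%, lay farther without overlap beside 19.3% of genes, and none nearer beside 1.68%. Measured to the nearest annotated TSS instead, the 3 counts against scramble were 30 of 37 in CPT1a KO beside 63.8% of all genes, 24 in KAT2a KO beside 52.8% and 25 in CPT1a KO + Ac beside 47.0%, and 1 member lay farther in CPT1a KO beside 3.29%. The downstream edge of the peak was nearer in CPT1a KO than in scramble for 22 members, or 62.9%, beside 66.6% of genes, and farther for 4, or 11.4%, beside 3.12%.

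**Figure D4:**
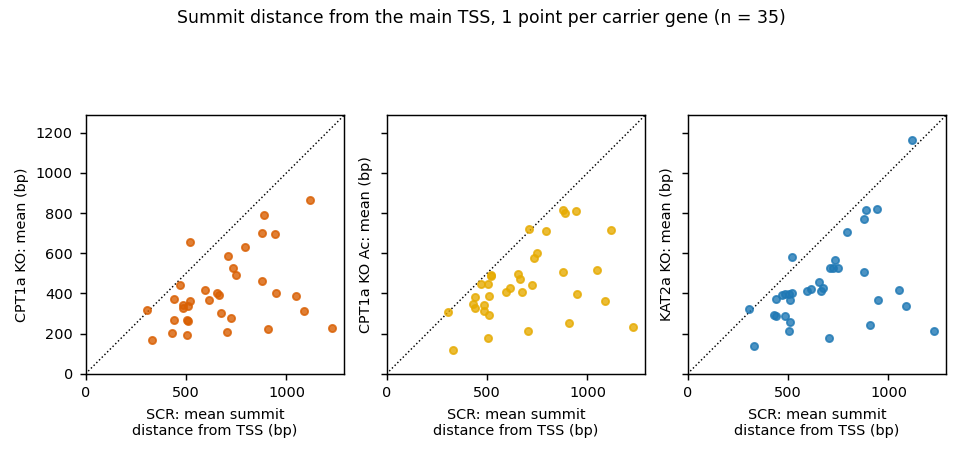
Mean distance in bp of the summit from the main TSS in SCR (x axis) and in each other group (y axis) for 35 members; the dotted line marks equal distance. Of the 35 points per group, 33, 33 and 32 lie under the line in CPT1a_KO, CPT1a_KO_Ac and KAT2a_KO.

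Several shifts were longer than the 250 bases printed above. By the mean, Slc25a45 moved farthest between scramble and CPT1a KO, from 1227 to 226 bp, but its scramble summits lay at 3025, 375 and 282 bp, so that 1 library set the mean. The Slc25a36 summit lay 1115, 1039 and 1113 bp downstream of the main TSS in scramble, 353, 291 and 302 bp in CPT1a KO, 461, 245 and 375 bp in CPT1a KO + Ac, and 271, 372 and 374 bp in KAT2a KO. Slc25a3 was at 929, 1007 and 915 bp in scramble, 397, 362 and 451 bp in CPT1a KO, 374, 381 and 435 bp in CPT1a KO + Ac, and 365, 377 and 354 bp in KAT2a KO. Slc25a46 was at 942, 725 and 1059 bp in scramble and 205, 197 and 263 bp in CPT1a KO. Slc25a33 was at 1165, 958 and 1028 bp in scramble, 450, 357 and 360 bp in CPT1a KO, 686, 489 and 379 bp in CPT1a KO + Ac, and 479, 412 and 360 bp in KAT2a KO. For Slc25a36, Slc25a3, Slc25a46 and Slc25a33 every library of the other groups lay nearer than the 3 of scramble. Slc25a5 was an exception, at 247, 370 and 299 bp in scramble and 349, 334 and 270 bp in CPT1a KO, with complete overlap. These genes were chosen after their values had been seen.

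Slc25a13 and Slc25a17 show the narrowing on the downstream side. The Slc25a13 peak ended 2032, 2285 and 2198 bp downstream of the TSS in scramble and 1271, 1182 and 1097 bp in CPT1a KO, with summits at 424, 418 and 473 bp and at 374, 375 and 370 bp. The Slc25a17 peak ended at 1791, 1749 and 1527 bp in scramble and at 1052, 1046 and 938 bp in CPT1a KO. In both the far edge drew in by more than the spread of the libraries.

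**Figure D5:**
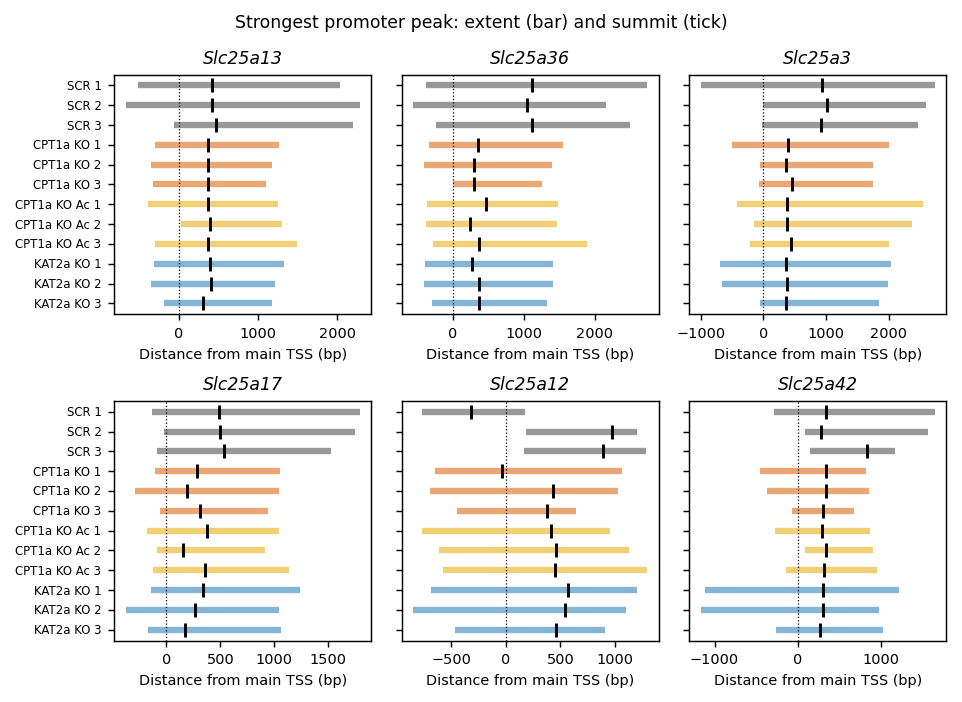
Extent of the strongest promoter peak (bar) and its summit (tick) in bp from the main TSS for 6 members, 1 line per library. In Slc25a13, Slc25a36 and Slc25a17 the SCR bars reach farthest downstream, in Slc25a3 the SCR summits do, and in Slc25a12 1 SCR bar ends shortly after the TSS and 2 begin after it, while the bars of the other groups run across it.

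The scramble libraries had the most peaks (29176 to 34370, against 16212 to 24639). Calling depth was lower in every CPT1a KO and every KAT2a KO library than in any scramble library, so depth and knockout differed together in these comparisons. Only CPT1a KO + Ac replicate 3, at 1.91, reached the scramble range, next to 1.90 in scramble replicate 3. The other CPT1a KO + Ac libraries lay below that range. The median local background over calling depth at member peaks was 1.76 and 1.81 in CPT1a KO replicates 1 and 3 and 1.45 in KAT2a KO replicate 3, against 1.01 to 1.24 in the other 9 libraries. Over all genes the medians were 1.41, 1.52 and 1.35 in those 3 libraries, against 1.07 to 1.26 in the other 9. CPT1a KO replicate 3, with the lowest depth, had a median summit distance of 356 bp beside 353 bp in replicate 1, whose depth was 1.70. Both depths lie below every scramble library, so this pair cannot separate depth from knockout. The part of peak number, depth and local background in these results was not tested.

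Genes related to the family by sequence or by function were followed in 3 lists. Of its relatives left out by the rule or by name, Slc25a1, the citrate carrier, Slc25a20, the carnitine-acylcarnitine carrier, Ucp2, Mtch1 and Mtch2 had a promoter peak in all 12 libraries and Ucp1 and Ucp3 in none. Slc25a1 rose in CPT1a KO, from a mean rank of 8.29 to 26.9 (difference 18.6 ± 4.69, SE; adjusted p = 0.0233), and the other 4 did not pass any test. All 12 genes of the carrier import machinery were called in all libraries. Of these, Timm13 rose in rank in CPT1a KO (13.5 to 36.7, adjusted p = 0.0278), Timm22, the core of the translocase that inserts carriers, rose in CPT1a KO + Ac against scramble (52 to 90.9, adjusted p = 0.0404), and the peaks of Timm22 (log2 -0.72), Timm9 (-0.66) and Tomm70a (-0.70) narrowed in CPT1a KO, with adjusted p-values of 0.0251, 0.0147 and 0.0137. These were 1, 1 and 3 of the 12 genes, beside 4.77%, 1.66% and 25.1% of all genes that changed in the same way. Of 14 other inner membrane transporters 13 were called in all 12 libraries and Sfxn4 in 3, and none passed the test on rank (limma). No gene of the 3 lists passed a test in KAT2a KO or between CPT1a KO + Ac and CPT1a KO.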

How the data were processed

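H3K9ac peak lists from 12 libraries were used; the 12 input libraries were not analysed here. According to the study's methods and submitters' processing notes, the authors mapped reads to mm10 (BWA in the methods, Bowtie2 in the notes, which also list FastQC, SAMtools, deepTools and the build dm6) and called peaks per library with MACS2; whether input was used in calling is not given in the sources used here, and the antibody number differs between labels and methods. The deposited lists give the fold enrichment ratio at the summit, the deposited −log10 p and −log10 q, an integer score from the authors' caller, and positions. No read counts were used. Pileup, local background and calling depth were recovered from these columns for 100% of peaks, so that depth is known only as the caller used it.

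Peaks on chromosomes 1 to 19 and X overlapping 1000 bp around any TSS were promoter peaks. The rank percentile of fold enrichment of the strongest peak and its log2 width were fitted over 10777 genes with limma 3.58.1 (R 4.3.3; trended eBayes, all 12 libraries, 4 comparisons, Benjamini-Hochberg threshold 0.05) and tested on simulated data; Python 3.11.15, numpy 2.4.6, pandas 2.3.3 and scipy 1.17.1 did the rest. Groups and replicate numbers came from the titles. The members and lists were chosen with earlier results of these data known. Values per library are given for up to 3 members per direction past the threshold or else the 3 smallest p-values, the 3 highest and lowest in scramble, members called in some libraries, and a fixed set of nucleotide, phosphate, CoA, carboxylate and aspartate-glutamate carriers; summit positions, pileup ranks and the genes named for them were added after the data had been seen. Alternatives covered window, overlap, TSS set, q minimum, equal depth, ranked measure, GC trend, width definition, replicate block and single libraries left out. The widths of the other inner membrane transporters are not reported here.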

Additional observations from a re-analysis of the deposited data

How the results depend on the processing

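The number of members with a promoter peak in all 12 libraries was 37 without any single library, 35 at equal calling depth, where Slc25a42 was called in 11 libraries and could not be fitted, and 36 with TSSs of protein-coding transcripts. For rank in CPT1a KO against scramble, the 5 called members became 2 with the GC trend removed (5.41%, beside 9.49% of all genes). They became 13 by −log10 p (35.1%, beside 31.9%) and 14 by summit pileup, added after seeing the data (37.8%, beside 45%). The count was 3 without the mean-variance trend (8.11%, beside 9.9%) and 2 with only the 6 libraries compared (5.41%, beside 2.25%). It was 1 with the replicate block and GC removal (2.7%, beside 8.15%). Leaving out single libraries gave 1 (scramble replicate 3) to 4. For rank in KAT2a KO the 2 became 1 with GC removal (2.7%, beside 3.4% of all genes) and 0 among all peaks (beside 0%). They became 8 by −log10 p (21.6%, beside 21.6%) and 12 by pileup (32.4%, beside 37.4%). At equal depth the count was 5, with or without the block (14.3%, beside 9.62%, or 8.49% with the block). It was 0 with only the 6 libraries (beside 0%), 0 with block and GC removal (beside 2.36%), and 0 to 2 without single libraries. For CPT1a KO + Ac against CPT1a KO the count of 0 became 1 by pileup (2.7%, beside 1.16% of all genes). For CPT1a KO + Ac against scramble the count of 0 became 1 with GC removal (2.7%, beside 4.35%, or 3.37% with the block). It became 10 by −log10 p (27%, beside 23.7%) and 11 by pileup (29.7%, beside 37.3%). At equal depth it was 2 (5.71%, beside 11.1%, or 9.81% with the block), and with only the 6 libraries 1 (2.7%, beside 3.96%). Both acetate counts by rank were 0 without any single library. Slc25a10 in CPT1a KO turned to -0.52 percentiles among all peaks. The causes were not tested.

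For width in CPT1a KO the 5 called members became 8 with GC removal, with or without the block, of which 6 were wider and 2 narrower. These 8 were 21.6%, beside 11.4% of all genes, or 9.62% with the block. With only the 6 libraries the count was 0, beside 2.79%. It was 25 with peaks within 500 bp merged (67.6%, beside 72.9%), 9 by rank of width (24.3%, beside 13.2%) and 19 with widths summed (51.4%, beside 62.7%). Without single libraries it ran from 3 (without CPT1a KO replicate 1 or scramble replicate 1) to 8 (without scramble replicate 2). For width in KAT2a KO the 1 became 4 with GC removal, with or without the block (10.8%, beside 8.45% of all genes, or 7.1% with the block). The count was 0 with only the 6 libraries (beside 0.121%) and 15 merged (40.5%, beside 44.6%). It was 4 by rank of width (10.8%, beside 10.3%) and 4 summed (10.8%, beside 22.1%). With the block it was 0, beside 0.418%, and it was 0 without any single library. For width in CPT1a KO + Ac against scramble the 2 became 4 with GC removal, with or without the block (10.8%, beside 5.69% of all genes, or 4.58% with the block). The count was 0 with only the 6 libraries (beside 0%) and 17 merged (45.9%, beside 49.5%). It was 4 by rank of width (10.8%, beside 7.59%) and 7 summed (18.9%, beside 33.6%). With the block it was 0, beside 2.58%, and it was 0 without any single library. Slc25a14 in CPT1a KO turned to log2 -0.44 with peaks merged and -0.12 summed, and Slc25a12 in CPT1a KO + Ac to -0.58 and -0.43; the separate peaks counted at these promoters in scramble are joined or added by these settings.

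Correlations of the deviations from the group mean ran from -0.06 to 0.07 for rank and from -0.22 to 0.27 for width between same-numbered libraries. Between libraries of different numbers they ran from -0.09 to 0.10 and from -0.26 to 0.30. These values cannot show whether the numbers pair the libraries. The replicate block left the rank counts of 5, 2, 0 and 0 as they were, although Slc25a10 was lost (adjusted p = 0.0577), and gave 7 members by width in CPT1a KO (18.9%, beside 24.9% of all genes). With 3 libraries a group a difference that missed the threshold does not show equal acetylation.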
